A study of Mus with 6 samples.

Results

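The AP-1 transcription factor family was described here by 8 genes, namely Fos, Fosb, Fosl1, Fosl2, Jun, Junb, Jund and Atf3. They were taken by symbol from 19938 genes measured in the hippocampus, and each was represented by the single row of the array table that carries its symbol alone. The samples were 3 control mice and 3 mice subjected to forced swim stress (FSS), all C57BL/6JJmsSlc, with no transgene or deletion named, and aged 10 to 11 weeks by the labels. The paper gives them as male. FSS mice swam 11 min per day for 5 days in water at 25 °C and 25 cm deep, and control mice did not swim. By the paper's schedule, tissue was taken days after the last swim, with a tail suspension test in between. Whole hippocampus of 1 mouse was hybridised to each 1-colour Affymetrix Mouse Gene 1.0 ST array, and the deposited values are log2 levels made by robust multi-array averaging (RMA). The comparison of FSS with control mice asks which hippocampal transcripts differ after repeated stress. In such whole-tissue RNA, fewer cells of a type and less RNA per cell cannot be told apart.

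AP-1 proteins carry a basic region that contacts DNA and a leucine zipper that joins them in pairs. Fos proteins do not pair with each other and bind DNA as partners of a Jun protein, whereas Jun proteins can also pair among themselves. In the hippocampus, neuronal activity and stress induce Fos and several of its relatives within minutes as immediate early genes, and their transcripts are short-lived. Jund is transcribed more steadily, and Atf3, a member of the related ATF group, is induced by cellular stress and injury and can pair with Jun proteins.

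Of the 8 AP-1 genes, Fos was lower in FSS mice at an unadjusted p under 0.05 from limma, none was higher, and 7 did not pass. Among all 21789 rows tested, 2.66% were lower and 2.49% were higher by this rule, or 5.14% in either direction. None of the 8 genes passed the study's thresholds of a log2 difference over 0.5 in size with p under 0.05, which 0.0688% of all rows passed. After Benjamini-Hochberg adjustment over all rows, limma called 0 of the 8 genes and 0 rows in all, the row count at an unadjusted p under 0.05 being 1121. The log2 differences of the 8 genes ran from -0.37 to 0.056 with a median of -0.017, beside a median of 0.0049 over all rows. There were 4 genes below 0 and 4 above.

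Fos, the founding member of the Fos subfamily and a common marker of recent neuronal activity, had log2 levels of 7.12, 7.35 and 7.13 in control mice 1, 2 and 3. In FSS mice 1, 2 and 3 its levels were 6.70, 7.06 and 6.73. FSS mice 1 and 3 were low, whereas FSS mouse 2 lay just below the lowest control mouse, and the groups did not overlap. The two-sided exact permutation p was 0.1, below which 3 mice against 3 cannot go. Of all rows, 4.25% had every FSS mouse below every control mouse. The mean level of Fos was 7.20 ± 0.13 (SD, n = 3) in control mice and 6.83 ± 0.20 (SD, n = 3) in FSS mice, that is, 22.6% lower in FSS mice. The log2 difference was -0.37 (standard error 0.11, 95% interval -0.64 to -0.10, limma adjusted p = 0.943). Its unadjusted p was 0.0135, which ranked at position 279 of all rows. With the variance of Fos alone, as in the methods' t-test, Fos did not pass. The mean level of Fos lay at percentile 39.8 of the rows tested, so Fos was not tested when the dimmer rows were left out. Without each mouse in turn, the difference ranged from -0.48 to -0.30 and passed each time, with unadjusted p from 0.00123 to 0.0482.

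**Figure D1:**
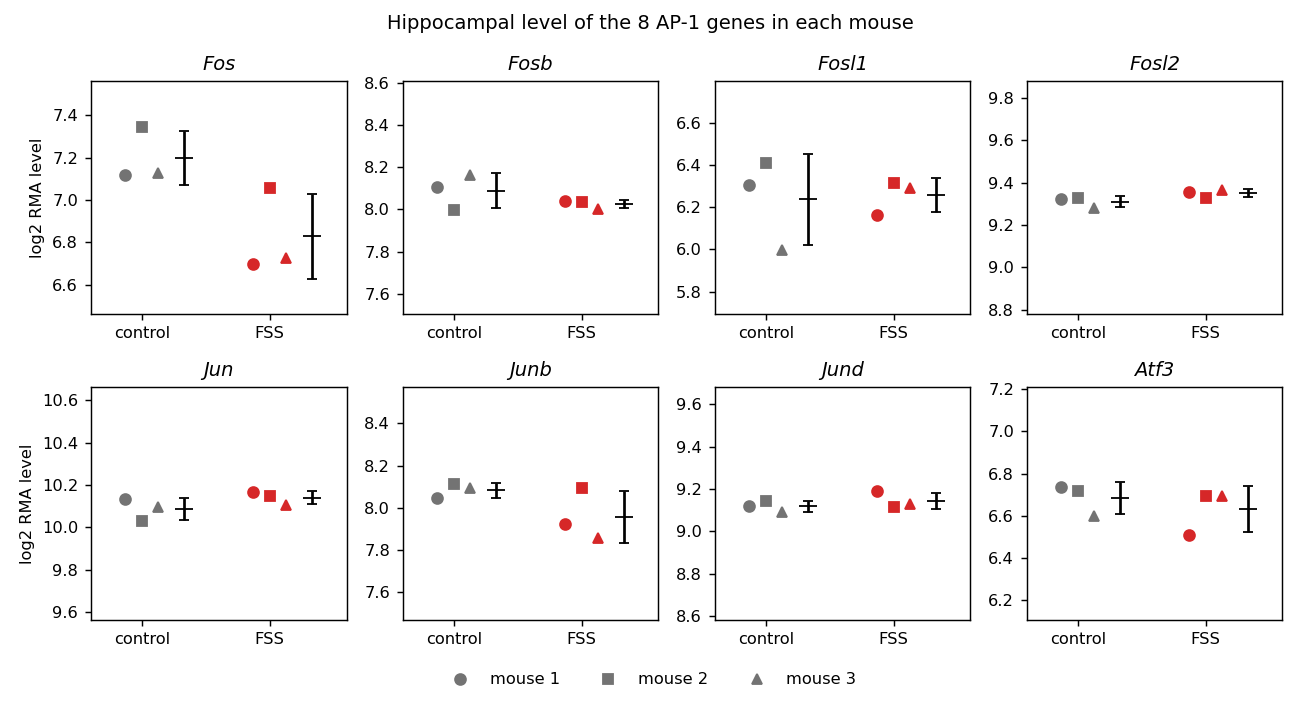
Log2 RMA level (y axis, each panel spanning the same log2 range) of the 8 AP-1 genes in 3 control mice (grey) and 3 FSS mice (red). Symbols mark mouse 1, 2 and 3 of each group, which were not treated as paired, and black bars give the mean ± SD. Fos is the only panel in which all FSS mice lie below all control mice, and the mean level of Fos was 7.20 in control and 6.83 in FSS mice.

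Fosb encodes FosB and, by alternative splicing, the long-lived truncated form ΔFosB, which the single row used here does not separate. Its levels were 8.105, 7.999 and 8.161 in control mice and 8.038, 8.037 and 8.002 in FSS mice. The FSS levels lay within the range of the control levels, and the log2 difference was -0.063 (95% interval -0.19 to 0.064, limma adjusted p = 0.968). Fosl1, which encodes Fra-1, had levels of 6.30, 6.41 and 6.00 in control mice and 6.16, 6.31 and 6.29 in FSS mice. The groups overlapped fully for Fosl1, the lowest and the highest level both being in control mice. Its log2 difference of 0.018 (95% interval -0.24 to 0.27, limma adjusted p = 0.994) turned to -0.10 without control mouse 3, the mouse with the lowest level. The mean level of Fosl1 was the dimmest of the family relative to all rows, at percentile 27.3.

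Fosl2, which encodes Fra-2, had levels of 9.32, 9.33 and 9.28 in control mice and 9.36, 9.33 and 9.37 in FSS mice. All FSS mice exceeded all control mice (two-sided exact permutation p = 0.1), as in 6.02% of all rows, but FSS mouse 2 and control mouse 2 differed only in the third decimal. The log2 difference of Fosl2 was 0.040 (95% interval -0.056 to 0.14) and did not pass (limma adjusted p = 0.971). Of the 4 genes of the Fos subfamily, Fos alone passed.

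Of the Jun subfamily, no gene passed. Jun, which encodes c-Jun, the classical partner of Fos, had levels of 10.13, 10.03 and 10.09 in control mice and 10.17, 10.15 and 10.11 in FSS mice. The lowest 2 levels were in control mice, and the groups overlapped. The log2 difference of Jun was 0.056 (95% interval -0.054 to 0.17, limma adjusted p = 0.968). Junb, which encodes a partner of Fos with weaker activating capacity than c-Jun at many sites, had levels of 8.05, 8.11 and 8.09 in control mice and 7.92, 8.10 and 7.86 in FSS mice. FSS mice 1 and 3 were again low, and FSS mouse 2 lay among the control mice. The log2 difference of Junb was -0.13 (standard error 0.068, 95% interval -0.29 to 0.036, limma adjusted p = 0.943), with an unadjusted p of 0.107. Without FSS mouse 2 it was -0.20 with an unadjusted p of 0.00908, so this mouse decided whether Junb passed. Jund levels were 9.12, 9.14 and 9.09 in control mice and 9.19, 9.12 and 9.13 in FSS mice. The groups overlapped for Jund, and its log2 difference was 0.027 (95% interval -0.075 to 0.13, limma adjusted p = 0.978).

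Atf3 had levels of 6.74, 6.72 and 6.60 in control mice and 6.51, 6.69 and 6.69 in FSS mice. FSS mouse 1 was the lowest, and the other FSS mice lay within the control range. The log2 difference was -0.053 (95% interval -0.22 to 0.11, limma adjusted p = 0.973), and without FSS mouse 1 it was 0.0089. Across the 7 genes that did not pass, the 95% intervals reached no lower than -0.29 and no higher than 0.27 on the log2 scale. The narrowest interval was that of Fosl2 and the widest that of Fosl1.

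**Figure D2:**
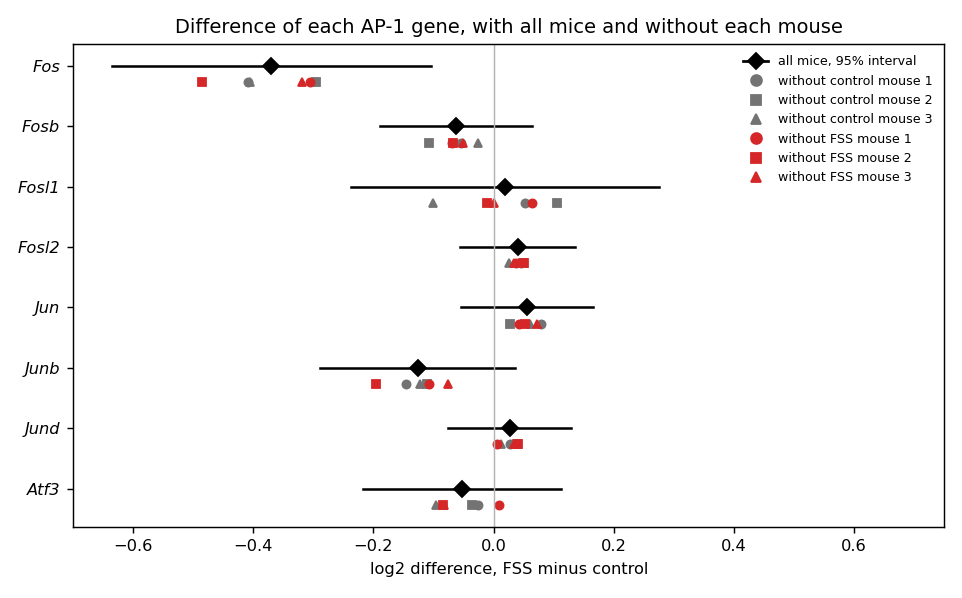
Log2 difference, FSS minus control (x axis), of each AP-1 gene (y axis). Black diamonds and lines give the value with all mice and its 95% interval from limma, and the small symbols below give the value without each mouse. The interval of Fos, from -0.64 to -0.10, is the only one that does not reach 0, and the values of Fosl1 and Atf3 lie on both sides of 0.

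Fos was next set against each of the other AP-1 genes within each mouse, as the difference of their log2 levels. The comparison was not limited to partners of Fos, since Fos proteins do not pair with each other. It concerns transcripts and does not measure protein pairs. This difference shows only whether both transcripts moved unequally, not the level of 1 against the other. Fos minus Jun was -3.01, -2.68 and -2.97 in control mice and -3.47, -3.09 and -3.38 in FSS mice. Every FSS mouse lay below every control mouse, with a shift of -0.43 on the log2 scale (two-sided exact permutation p = 0.1). Fos minus Junb was -0.93, -0.77 and -0.97 in control mice and -1.22, -1.04 and -1.13 in FSS mice, and shifted by -0.24 (exact permutation p = 0.1). In 6 of the 7 comparisons every FSS mouse lay below every control mouse, as it did for 58.5% of all other rows set against Fos in this way. The exception was Fosb, for which the shift was -0.31 and the exact permutation p was 0.3. The shift was -0.39 against Fosl1, -0.41 against Fosl2, -0.40 against Jund and -0.32 against Atf3. All of these comparisons share the Fos values, and with 3 mice against 3 no exact p can go below 0.1.

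The members differed in which mice were high or low. Of the 28 pairs, 14 had a positive Pearson's r and 2 had an exact permutation p under 0.05, while none passed after adjustment over the 28 pairs. Fos and Junb were the pair with the highest r, 0.92 (exact permutation p = 0.0181, adjusted p = 0.457, Spearman's rho = 0.77 with exact permutation p = 0.103 and adjusted p = 0.719). Without the 2 mice farthest from the median Fos level, FSS mice 1 and 3, r was 0.52. Those mice were left out for their extreme Fos levels, so this r cannot tell how far the relation rested on them. Within groups, the deviations of Fos and Junb from their group means had r = 0.88. Fosb and Fosl2 were the other pair, with r = -0.82 (exact permutation p = 0.0472, adjusted p = 0.457, Spearman's rho = -0.60 with exact permutation p = 0.242 and adjusted p = 0.757), and r was -0.016 without the 2 mice farthest from the median Fosb level. Fos and Jun had r = -0.68 (exact permutation p = 0.126, adjusted p = 0.457, Spearman's rho = -0.83 with exact permutation p = 0.0583 and adjusted p = 0.719), and r was -0.96 without FSS mice 1 and 3 but -0.38 for the deviations from group means. This pair is given because c-Jun is the classical partner of Fos, and r was lower for others, among them Fosl2 and Junb at -0.78 and Fosb and Fosl1 at -0.76 (adjusted exact permutation p = 0.457 for each). The r without 2 mice has the same limit for Fosb and Fosl2 and for Fos and Jun as for Fos and Junb. In each case the mice were left out for their extreme levels of 1 gene of the pair.

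The spread of all values differed between arrays, control mice 1 and 2 and FSS mouse 2 having an SD of 2.22 to 2.23 and the others 2.26 to 2.27. The low Fos levels of FSS mice 1 and 3 were on arrays of wider spread, as was control mouse 3. Within the 3 narrower arrays Fos differed by -0.17 on the log2 scale with 1 FSS mouse, and within the 3 wider arrays by -0.41 with 1 control mouse. With this split as a block the log2 difference of Fos was -0.29 and passed, with an unadjusted limma p of 0.0148. Spread and group were partly confounded in these arrays, and the part of spread in the Fos level was not tested. For Junb the difference was 0.015 within the narrower and -0.20 within the wider arrays, and for Jun it was 0.067 and 0.043.

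Genes that act on AP-1 or with it were then examined as lists, by the unadjusted limma p under 0.05 and against the background of 2.66% lower and 2.49% higher. The first list held the kinases that carry activity and stress signals to AP-1 genes, the factors that bind the Fos promoter and their cofactors. Of 30 such genes 24 were measured by a row of their own, and 0 were lower and 0 were higher, with differences from -0.054 to 0.12 and a median of 0.018. Map2k1, which encodes a kinase of the signalling cascade from growth factor receptors, had levels of 10.70, 10.64 and 10.71 in control mice and 10.77, 10.76 and 10.79 in FSS mice, and Mapk8, which encodes the Jun kinase JNK1, had 10.72, 10.74 and 10.75 against 10.69, 10.68 and 10.68. The groups did not overlap for either gene, which were picked for that after their values were seen. Of the 24 genes, 1 had every FSS mouse below every control mouse and 1 had every FSS mouse above. These shares were 4.25% and 6.02% among all rows. The log2 differences of Map2k1 and Mapk8 were 0.090 (limma adjusted p = 0.943) and -0.054 (limma adjusted p = 0.947). Neither passed, whereas both did with the variance of each gene alone. Srf, which encodes serum response factor, had a log2 difference of -0.0083 (limma adjusted p = 0.994).

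Of 20 feedback regulators of this signalling, 1 was lower, 1 was higher and 18 did not pass, and the median was 0.0062. Dusp1, itself an immediate early gene that encodes a phosphatase of JNK and p38, had levels of 10.04, 10.45 and 10.21 in control mice and 9.94, 10.06 and 9.82 in FSS mice. The groups overlapped, FSS mouse 2 lying just above control mouse 1. The log2 difference of Dusp1 was -0.30 (standard error 0.11, limma adjusted p = 0.943). Dusp4, which encodes a nuclear phosphatase of the same family, was higher in every FSS mouse, as were 6.02% of all rows. Its log2 difference was 0.13 (standard error 0.047, limma adjusted p = 0.943). Dusp1 did not pass without control mouse 2, control mouse 3, FSS mouse 1 or FSS mouse 3, and Dusp4 did not pass without control mouse 1, control mouse 2, FSS mouse 1 or FSS mouse 2.

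Of 25 measured genes of other basic leucine zipper (bZIP) factors, 2 were lower, 0 were higher and 23 did not pass. Batf3, whose product pairs with Jun proteins, had a log2 difference of -0.14 (limma adjusted p = 0.943), with levels of 7.14, 7.0004 and 7.05 in control mice and 6.90, 6.97 and 6.90 in FSS mice. Atf1, whose product binds cAMP response elements, had a log2 difference of -0.11 (limma adjusted p = 0.943), with levels of 9.05, 9.13 and 9.13 against 8.997, 9.02 and 8.97. For both genes every FSS mouse lay below every control mouse, but by small steps. Of the 25 genes, 3 were separated in this direction and 1, Atf6, in the opposite one. Besides Batf3 and Atf1, the 3 included Cebpb, which did not pass in the main fit, at -0.11 (limma adjusted p = 0.943). Among all rows, 4.25% were separated downwards and 6.02% upwards. The median of this list was -0.038, with 18 of 25 genes below 0, whereas 10245 of all 21789 rows lay below 0. No gene of this list was lower without control mouse 3, FSS mouse 1 or FSS mouse 3. Batf3 alone was lower without control mouse 2, Batf3, Batf and Batf2 without FSS mouse 2, and Atf1 and Mafk without control mouse 1.

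Of 23 measured genes that AP-1 is known to regulate, 0 were lower and 0 were higher, and the median difference was 0.024. Among them were Penk, which encodes proenkephalin, at -0.040 (limma adjusted p = 0.978) and Mmp9, a matrix metalloproteinase, at -0.16 (limma adjusted p = 0.943). Pdyn, which encodes prodynorphin, was at 0.16 (limma adjusted p = 0.943), and Scg2, which encodes secretogranin II, at 0.096 (limma adjusted p = 0.943).

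**Figure D3:**
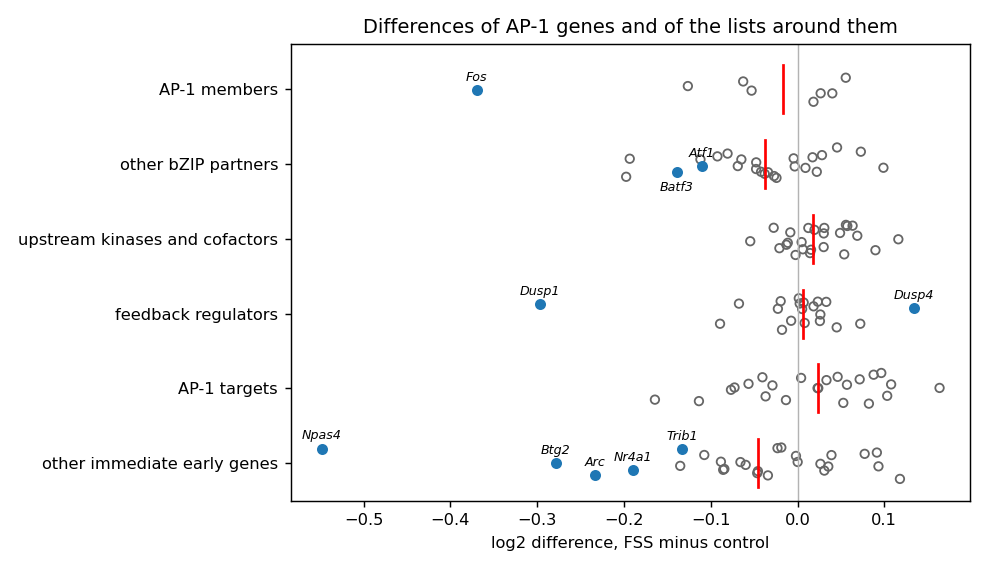
Log2 difference, FSS minus control (x axis), of the AP-1 genes and of the measured members of 5 lists (y axis). Circles are genes, those with a name and a fill having an unadjusted limma p under 0.05, and red lines are list medians, from -0.046 for other immediate early genes to 0.024 for AP-1 targets. Vertical scatter within a list has no meaning.

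Of 27 other immediate early genes, some of which were seen in an earlier account of these data, 5 were lower, 0 were higher and 22 did not pass, with a median of -0.046. The lower genes were Npas4, a transcription factor of active neurons, at -0.55, Btg2, an antiproliferative cofactor, at -0.28, Arc, a regulator of synaptic AMPA receptors, at -0.23, Trib1, a pseudokinase, at -0.13, and Nr4a1, an orphan nuclear receptor, at -0.19. The limma adjusted p was 0.943 for each of them. Of the 27 genes, 1 (Npas4) passed the study's thresholds, as did 0.0688% of all rows. Its difference was under 0.5 in size without control mouse 2 (-0.48) or FSS mouse 1 (-0.47). Every FSS mouse lay below every control mouse for 5 of the 27 genes and above for 1, beside 4.25% and 6.02% of all rows. By the unadjusted p under 0.05, Npas4, Btg2 and Arc passed without each mouse in turn. Nr4a1 passed only without control mouse 1, and Trib1 only without control mouse 2 or FSS mouse 3. The number lower was 3 without control mouse 3 and 4 to 5 without any other mouse, where Gadd45b, Egr2, Ier2, Klf2 or Ccn1 also passed in some of these fits. Of those that did not pass, picked after their values were seen, Egr1, a zinc finger factor induced beside Fos, was at -0.034 (limma adjusted p = 0.973), Egr3 at -0.0018 (limma adjusted p = 0.999) and Ier2 at -0.084 (limma adjusted p = 0.971).

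The order of the mice in Fos was close to that in Npas4 and Btg2. Npas4 levels were 8.26, 8.59 and 8.50 in control mice and 7.74, 8.15 and 7.81 in FSS mice. Btg2 levels were 8.55, 8.59 and 8.51 against 8.23, 8.39 and 8.19. In each of these, FSS mouse 2 was the highest of the FSS mice and control mouse 2 the highest of the control mice, as for Fos. Over the 6 mice the r with Fos was 0.96 for Npas4 and 0.96 for Btg2, which ranked at positions 9 and 16 among 9857 genes of a mean level above the median of the rows. The deviations from group means had r = 0.90 for Npas4 and 0.92 for Btg2. Arc had r = 0.80 with Fos, but 0.31 for the deviations. The 5 genes with the highest r to Fos were Phka2 at 0.99, Etfdh at 0.99, Pnisr at 0.98, Kcna2 at 0.97 and Rhoj at 0.97. With the deviations their r was 0.98, 0.96, 0.97, 0.95 and 0.92. These values describe 6 mice, among very many genes, and carry no test.

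**Figure D4:**
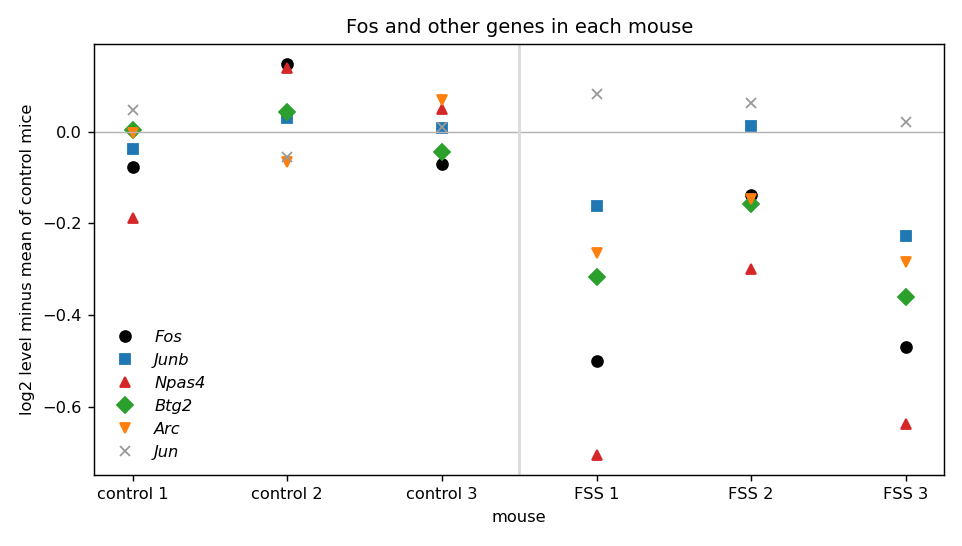
Log2 level minus the mean of the control mice (y axis) of Fos, Junb, Jun, Npas4, Btg2 and Arc in each mouse (x axis). FSS mice 1 and 3 were low for Fos (-0.50 and -0.47) and Npas4, FSS mouse 2 was nearer to the control mice, and Jun stayed within 0.083 of the control mean in every mouse.

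Markers of cell types were compared as the mean of their log2 levels, and defining neuronal markers of the hippocampus were well above the array median, Prox1 of granule cells at percentile 85.7 and Fibcd1 of CA1 neurons at percentile 80.5. By the unadjusted limma p under 0.05, 2.49% of all rows were higher and 2.66% were lower. Of 11 neuronal markers 1 was higher (Prox1) and 0 were lower. Their means were 10.98 to 11.01 in control mice and 11.00 to 11.07 in FSS mice. Of 5 astrocyte markers 3 were higher, with means of 9.97 to 10.08 and 10.14 to 10.20. Of 5 microglial markers 2 were higher, with means of 8.82 to 8.93 and 8.95 to 9.04. Of 4 meningeal markers 1 was higher, with means of 8.40 to 8.50 and 8.56 to 8.72. Of 4 choroid plexus markers 1 (Ttr) was higher, with means of 7.52 to 8.01 and 7.92 to 8.08. The log2 difference was 0.95 for Ttr but 0.036 for Kl, -0.043 for Folr1 and -0.12 for Kcnj13, so the other markers did not share its rise. None of 4 endothelial markers passed, with means of 8.42 to 8.57 and 8.44 to 8.59. None of 4 oligodendrocyte markers passed, with means of 11.04 to 11.14 and 10.83 to 11.17. The part of cell types in the lower Fos level was not tested.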

How the data were processed

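The authors normalised the scanned Mouse Gene 1.0 ST arrays by RMA in the Affymetrix Expression Console and deposited log2 levels, which were used as deposited. Background is not given per probe, so that dimness is relative to other rows, and the number of arrays limits the precision. Of 28944 rows, 21789 have 1 gene symbol in the array annotation, 21698 of them matched to RefSeq by gene ID with 0 symbols changed, and each AP-1 gene has 1 row. FSS minus control (3 arrays against 3, grouped by title) was fitted with limma 3.58.1 (lmFit, eBayes) in R 4.3.3, without covariates, on those 21789 rows, with Benjamini-Hochberg adjustment over all of them. A further FSS mouse that the methods mention was not analysed here. The fit was checked on simulated data. Single values were also compared by exact two-sided permutation over the 20 splits. No coordinates were used, since no genome build is given in the sources used here. The members and lists were chosen with earlier results of these data known. Genes were named if they were AP-1 genes, list members with p under 0.05 or the 5 most like Fos, and others were picked after their values were seen. Alternatives were other variance models, array weights, normalisations, filters, row sets, blocks, and leaving out each array.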

Additional observations from a re-analysis of the deposited data

How the results depend on the processing

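Fos was lower in all 15 alternatives that tested it and passed in 14, from -0.48 to -0.29. No AP-1 gene was higher or past the study's thresholds in any alternative. The count of lower AP-1 genes was 0 with each gene's own variance, without dim rows and after adjustment over all rows. It was 1 to 2 (Fos, and Junb without FSS mouse 2) without each mouse. Fosl1 turned to -0.0059 with array weights, -0.10 without control mouse 3 and -0.010 without FSS mouse 2 (up to 0.10 without control mouse 2), and Atf3 to 0.0089 without FSS mouse 1. With own variance, 1 upstream gene was lower and 1 higher, 0 feedback regulators were lower and 1 target was higher. With trended robust variances 1 upstream gene and 1 target were higher, and with array weights 1 target was lower. Without dim rows 1 bZIP gene was lower, and 1 upstream gene and 1 target were higher. With all rows fitted 1 bZIP gene was lower. With the spread block 1 bZIP gene and 0 feedback regulators were lower, and 1 upstream gene and 1 target were higher. After adjustment over all rows by limma 0 genes of any list passed. No test of pairs passed with deviations from group means (0 of 28, against 2). Without each mouse, lower bZIP genes numbered 0 to 3, higher upstream genes 0 to 1, lower and higher feedback regulators 0 to 1 each, lower and higher targets 0 to 1 each, and lower immediate early genes 3 to 5. The cause of these changes was not tested, except that dim rows left out could not pass.

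The main fit did not pair the mice by replicate number. The deviations of same-numbered mice from their group means had r = -0.048, 0.14 and 0.24. Control mice 2 and 3 were closest to the FSS mouse of the same number, and control mouse 1 to FSS mouse 2. With deviations from means of 3 mice, these values cannot settle whether the mice were handled in pairs. With the replicate number as a block, 1 bZIP gene was lower, and 0 feedback regulators and 1 target were higher. Fos passed at -0.37, with an unadjusted limma p of 0.000802 beside 0.0135 in the main fit. Since it is not known whether the numbers pair the mice, the smaller p adds no support.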
